A study of Mus musculus with 24 samples.

Results

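The genes described here are 38 genes of the DNA replication machinery, followed through the first steps of T cell development in sorted mouse thymocytes. They were listed by name, by a rule that uses no measured value, but with earlier results of these data known. Each is represented by 1 probe set of the array, the one with the highest mean signal over all 24 arrays. The array names 18193 genes through probe sets that match 1 gene, and all 38 replication genes are among them. All 38 also lay among the brightest 60% by mean signal, the 27022 probe sets tested, and this filter used the mean of all arrays rather than any group. By role, 8 of the genes act in origin recognition and helicase activation, 6 form the MCM2-7 helicase, 7 encode polymerases and primase, 6 the sliding clamp and its loader, 3 the single-strand binding complex, 3 act in lagging strand maturation and topology, and 5 in nucleotide supply.

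Thymocytes were sorted by CD44 and CD25 into the DN1 (CD44+CD25-), DN2 (CD44+CD25+) and DN3 (CD44-CD25+) stages, which follow each other before a T cell carries CD4 or CD8, and RNA was measured on 1 Affymetrix array per pool and stage. The control group was 4 pools of *Prkdc* Scid/Scid mice, and the TLX1 group, IgHμ-TLX1 Tg *Prkdc* Scid/Scid, had 4 pools too, so both groups lack a functional DNA-dependent protein kinase and neither can complete V(D)J recombination. Per the labels the mice were of outbred ICR background and 6 to 8 weeks old. The study's cohort description, however, includes mice younger than 6 weeks in TLX1 pools 1 and 2 and control pool 2. By the methods, the transgenic line had been bred on a CD1 background before the cross. The study pooled 2 to 5 sex-matched mice for each pool, with TLX1 pools 1 and 4 and control pools 2 and 4 female. The transgene is driven by the immunoglobulin heavy chain promoter and enhancer, which act mainly in B cells and are also active in thymocytes, and *Prkdc* Scid/Scid thymocytes are arrested at DN3, so the stages beyond it are not part of the comparison.

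DNA replication starts where the origin recognition complex, of which *Orc1* and *Orc6* are subunits, helps to load the ring-shaped MCM2-7 helicase onto DNA. The helicase becomes active when *Cdc45* and the GINS complex join it, with the help of *Mcm10*. DNA polymerase alpha and its primase then lay down primers, polymerase epsilon copies mainly the leading strand and polymerase delta the lagging strand, both held on DNA by the PCNA clamp that replication factor C loads. Replication protein A covers the exposed single strands, *Fen1* and *Lig1* trim and seal the lagging strand fragments, and the *Top2a* topoisomerase untangles the copies. Ribonucleotide reductase, thymidylate synthase, thymidine kinase and dUTPase supply the building blocks. Many of these genes are known to be transcribed around the G1 to S transition under E2F transcription factors. Early thymocytes are known to divide many times before and during DN2 and to slow down in DN3 until a rearranged TCR beta chain is tested.

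Promoter windows are shown here because the genes moved together between stages, and because the known regulator of the family, E2F, has a short recognition core. RefSeq windows of 300 bases (250 before to 50 after an annotated start, GRCm38.p6) were matched for 31 of the 38 genes. An E2F core, searched as TTGGCGC or TTCGCGC on both strands with overlapping matches counted, was found for 12 of the 31 genes (38.7%), against 4.47% of all 27025 genes with a window, 8.18% of the genes above the signal filter and 13.9% of 36 other replication genes. A CCAAT box (CCAAT, both strands), which can overlap an E2F core, was found for 67.7% of the 31 genes against 41.1% of all genes with a window and 42.6% of those above the signal filter. The cell cycle homology region TTTGAA was found for 16.1%, against 20.2% of all genes with a window and 14.4% of those above the filter. A match describes letters in a window and not a bound site. The windows below are printed 5′ to 3′ along the gene, with E2F core and CCAAT matches in capitals. *Mcm5* and *Mcm6*, 2 helicase subunits, and *Orc1*, the origin recognition subunit, are shown for their E2F cores, *Fen1* for the largest fall from DN2 to DN3 of the 38 genes, and *Rpa1* for the smallest rise from DN1 to DN2. The *Rpa1* window holds no E2F core and 2 CCAAT boxes.
Mcm5, chr8:75109259-75109558, plus strand: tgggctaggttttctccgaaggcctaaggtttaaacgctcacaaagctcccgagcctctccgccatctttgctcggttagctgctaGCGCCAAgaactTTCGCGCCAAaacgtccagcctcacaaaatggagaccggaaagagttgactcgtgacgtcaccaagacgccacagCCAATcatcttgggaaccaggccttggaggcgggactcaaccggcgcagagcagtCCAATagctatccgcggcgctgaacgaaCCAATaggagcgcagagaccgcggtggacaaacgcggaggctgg
Mcm6, chr1:128359656-128359955, minus strand: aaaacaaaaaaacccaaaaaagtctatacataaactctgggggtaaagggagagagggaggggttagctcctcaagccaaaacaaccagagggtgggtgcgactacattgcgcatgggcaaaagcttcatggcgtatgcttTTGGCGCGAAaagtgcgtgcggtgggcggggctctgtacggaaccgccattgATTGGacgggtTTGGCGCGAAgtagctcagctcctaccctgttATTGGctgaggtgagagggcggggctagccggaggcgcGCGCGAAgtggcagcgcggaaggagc
Orc1, chr4:108579204-108579503, plus strand: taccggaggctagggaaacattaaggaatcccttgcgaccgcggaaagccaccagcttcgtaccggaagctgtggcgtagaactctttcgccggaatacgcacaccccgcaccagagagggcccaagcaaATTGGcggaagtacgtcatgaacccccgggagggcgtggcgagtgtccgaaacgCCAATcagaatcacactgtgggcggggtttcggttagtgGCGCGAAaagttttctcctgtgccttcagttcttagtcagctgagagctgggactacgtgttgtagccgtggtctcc
Fen1, chr19:10203872-10204171, minus strand: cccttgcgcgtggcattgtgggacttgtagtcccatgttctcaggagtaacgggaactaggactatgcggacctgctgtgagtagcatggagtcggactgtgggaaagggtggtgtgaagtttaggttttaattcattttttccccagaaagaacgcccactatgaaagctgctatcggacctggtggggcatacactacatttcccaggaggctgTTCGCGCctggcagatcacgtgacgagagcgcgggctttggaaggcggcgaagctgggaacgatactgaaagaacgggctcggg
Rpa1, chr11:75348334-75348633, minus strand: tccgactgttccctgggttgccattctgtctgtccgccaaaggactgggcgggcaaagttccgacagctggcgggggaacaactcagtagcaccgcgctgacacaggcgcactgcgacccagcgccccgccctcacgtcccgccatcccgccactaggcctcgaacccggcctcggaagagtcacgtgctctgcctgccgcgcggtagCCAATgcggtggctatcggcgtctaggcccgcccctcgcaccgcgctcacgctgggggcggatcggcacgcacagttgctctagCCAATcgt
*Mcm6* has 5 core matches and *Mcm5* has 3, some of them overlapping on opposite strands, while *Orc1* and *Fen1* have 1 each. *Fen1* has 2 windows, and the one printed was chosen for its core match, while the other holds none. A gene with several windows was counted as having a motif if any of them held a match. Among the genes with an E2F core the median log2 change from DN1 to DN2, described below, was 1.18 (12 genes), and among those with a window and no core it was 1.04 (19 genes). Both groups hold genes with small changes, 0.32 for *Rpa3* with a core and 0.19 for *Rpa1* without a core. From DN2 to DN3 the median log2 change was -0.37 with a core and -0.39 without. Neither difference between the groups was tested.

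The deposited values are MAS5 signals on a linear scale with the same trimmed mean on every array, and array medians ran from 15.1 to 24.3. *Cd44*, which encodes the sorting marker lost at DN3, had signals of 892 to 1913 at DN1, 80.3 to 153 at DN2 and 9.52 to 29.0 at DN3, and *Il2ra*, which encodes CD25, had 488 to 1171 at DN1, 4270 to 5518 at DN2 and 4322.7 to 5541 at DN3. The probe set for mouse *Tlx1* was dim in both genotypes (2.75 to 17.3 over all 24 arrays) and does not check the genotype labels. Erythroid markers summed to at most 110 on any array. Marker counts cover the genes above the signal filter, and marker sums cover all measured genes of a list. Markers of natural killer and innate lymphoid cells (5 of 5 fell from DN1 to DN2), dendritic cells (5 of 5) and myeloid cells (8 of 8) were higher at DN1 than later. The log2 change from DN1 to DN2 in these 3 lists ran from -9.19 for *Il2rb* to -0.58 for *Nkg7*. Of early T markers 7 of 8 rose, and of 4 B lineage markers 2 rose and 1 fell. The summed natural killer and innate lymphoid signal was 12037 to 27249 at DN1 and 4229 to 5637 at DN2, and the summed early T signal 10219 to 20721 and 17633 to 24756. These lists moved with every comparison against DN1 given below, and their part in those results was not tested. RNA quality also moved with stage and genotype. The 3′/5′ index (mean log2 ratio of the 3′ to the 5′ probe sets of actin and *Gapdh*) averaged 0.257 at DN1, 0.518 at DN2 and 0.529 at DN3 in control pools and 0.057, 0.216 and 0.184 in TLX1 pools. In sorted bulk samples fewer cells that replicate DNA and less of each RNA per cell cannot be told apart.

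At DN1, control pool 3 and TLX1 pool 2 stood apart from the other 6 pools. The mean log2 signal of the 38 genes was 9.90 and 9.77 in these pools and 8.39 to 9.01 in the others. Control pool 3 had the highest DN1 signal of all pools for 32 of the 38 genes and TLX1 pool 2 for 5. The same pools had the highest DN1 sums of early T markers (20721 and 19343, against 10219 to 13138) and the lowest of natural killer and innate lymphoid markers (12037 and 15106, against 19373 to 27249). *Rag1*, a recombinase gene known to be switched on after DN1, read 3769 and 3192 in them at DN1 and 35.5 to 199 in the others. The study's cohort description gives these pools many cells outside the DN1 to DN3 gates. At DN2 all 8 pools had means between 9.95 and 10.12, and at DN3 between 9.51 and 9.92, with control pool 3 highest. The stage results are therefore given with and without both pools.

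**Figure D1:**
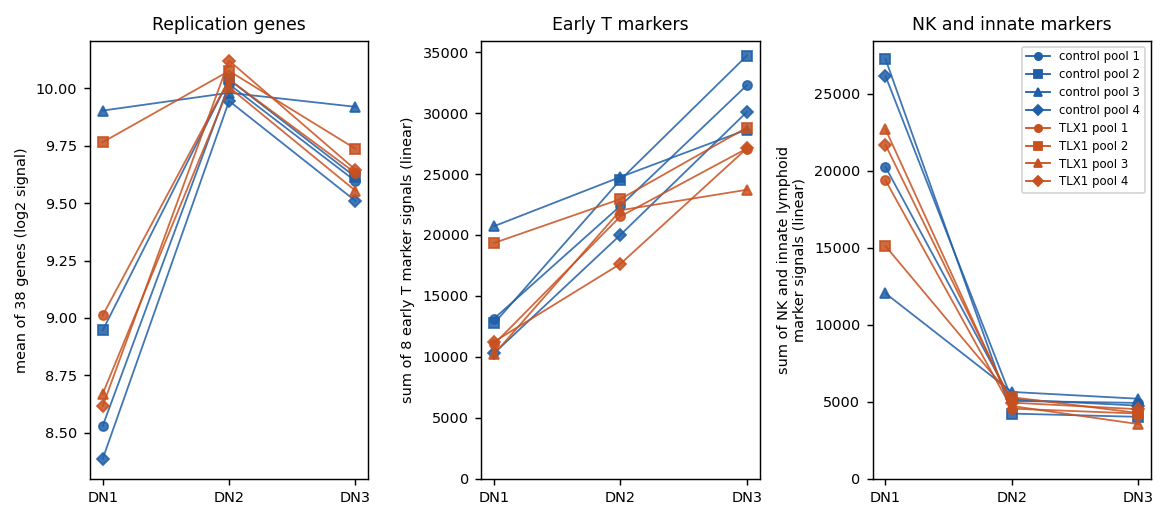
Mean log2 MAS5 signal of the 38 replication genes (left) and summed linear signals of early T markers (centre) and of natural killer and innate lymphoid markers (right) at DN1, DN2 and DN3, with 1 line per pool, control in blue and TLX1 in orange. The 38-gene mean of 8 pools came together at DN2 (9.95 to 10.12), and control pool 3 and TLX1 pool 2 started from 9.90 and 9.77 at DN1.

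The comparison of DN2 with DN1 asks how the replication genes changed as thymocytes acquired CD25. All 38 genes rose, with a median log2 change of 1.09 (2.12-fold) and a range from 0.19 in *Rpa1* to 1.89 in *Gins1* (adjusted p from 1.17e-06 to 0.0333, limma with pool as a block). Of all 27022 probe sets tested, 28.5% rose, and the median log2 change over all of them was -0.058. Within a genotype, 34 of 38 genes rose in the 4 control pools (21.9% of all probe sets) and 35 of 38 in the 4 TLX1 pools (22.8%), and *Rpa1*, *Rpa3* and *Rrm2* passed in neither, with *Gins3* also short of the threshold in control pools (adjusted p = 0.0501). The DN2 signal exceeded the DN1 signal of the same pool in 8 of 8 pools for 23 genes (17.1% of all probe sets), and the lowest of 8 DN2 signals exceeded the highest of 8 DN1 signals for 13 (7.69%). Per pool, the median log2 change of the 38 genes was 1.50, 1.16, 0.13 and 1.61 in control pools 1 to 4 and 1.06, 0.34, 1.44 and 1.54 in TLX1 pools 1 to 4. Without control pool 3 and TLX1 pool 2, the median was 1.45 and 38 of 38 genes rose (30.3% of all probe sets). Both pools were set apart in part by their high DN1 signal of the same genes. A larger rise without them was therefore fixed in advance and is not separate support. The 3′/5′ index had a higher mean at DN2 in both genotypes. With the index as a covariate the median was 1.36 and 38 of 38 genes rose (29.4% of all probe sets).

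**Figure D2:**
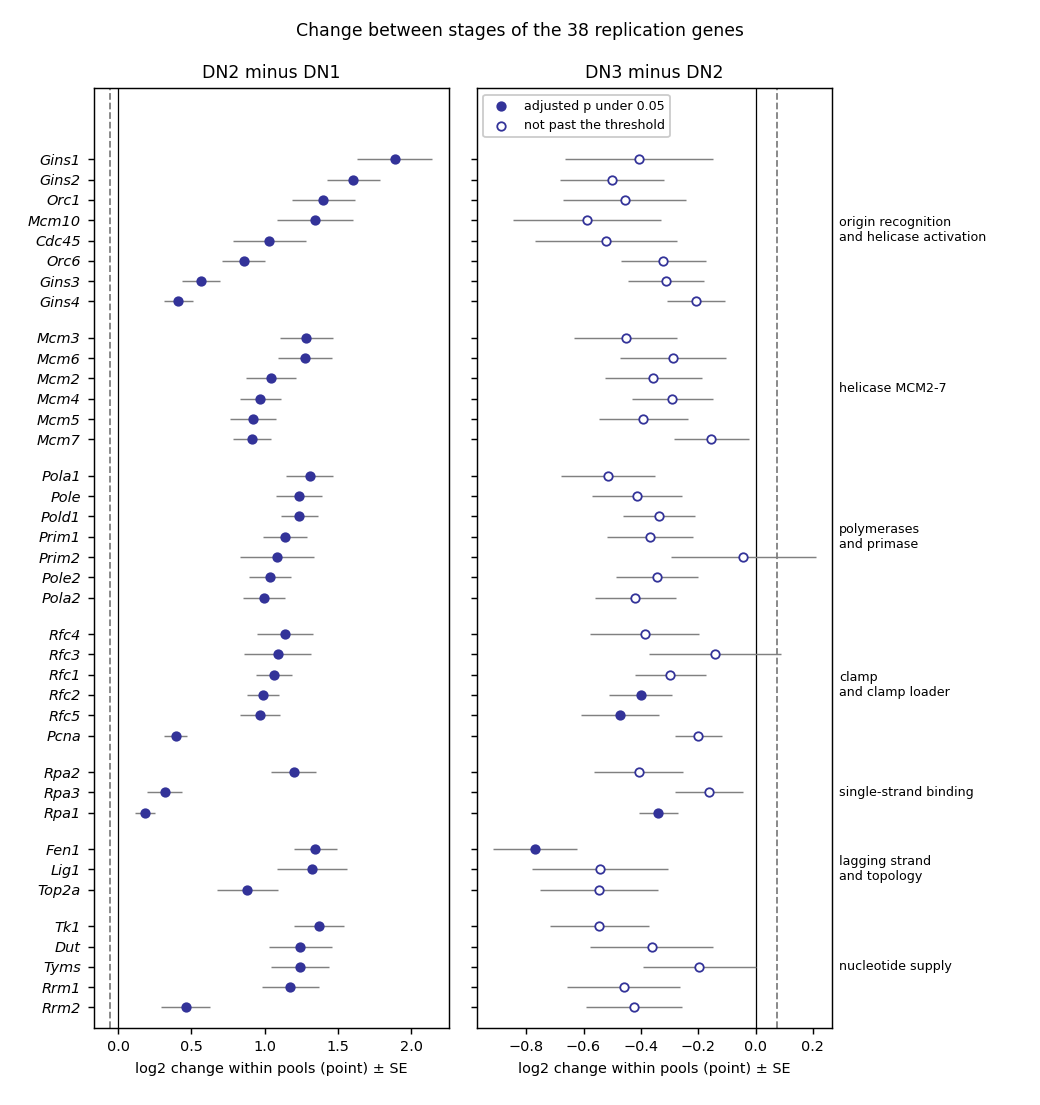
Log2 change of each of the 38 replication genes from DN1 to DN2 (left) and from DN2 to DN3 (right), estimated within 8 pools and grouped by role; points are estimates, bars are standard errors, filled points passed an adjusted p of 0.05, and the dashed line is the median of all probe sets. All 38 points on the left lie above 0 and are filled, and all 38 on the right lie below 0 with 4 of them filled.

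Origin recognition and helicase activation genes had the widest range, from 0.41 in *Gins4* to 1.89 in *Gins1*, with a median of 1.19, and 8 of 8 rose. Pool values below are listed for pools 1 to 4 in order, as linear MAS5 signals. The *Gins1* signal of the control pools was 157, 263, 771 and 126 in DN1, 877, 902, 1045 and 842 in DN2 and 799, 672, 949.8 and 611 in DN3. For *Gins1*, the TLX1 pools had 289.6, 570.5, 160.5 and 153, 1019.7, 871, 1016 and 907 and 675, 709, 602 and 668 at the same stages. Every pool was highest at DN2 and the DN1 and DN2 ranges did not overlap, even with control pool 3 and TLX1 pool 2 the highest at DN1, and the log2 change was 1.89 ± 0.26 (SE) (adjusted p = 2.01e-05). *Gins2* encodes another of the 4 GINS subunits. The *Gins2* signal of the control pools was 123, 143, 313 and 88.9 in DN1, 534, 426, 455 and 408 in DN2 and 359, 353, 367 and 284 in DN3. For *Gins2*, the TLX1 pools had 170.2, 292, 129 and 113, 457, 514, 496 and 525 and 309, 358, 320.2 and 341. It was also highest at DN2 in 8 of 8 pools, with a log2 change of 1.60 ± 0.18 (SE) (adjusted p = 3.33e-06). The other GINS subunits rose by 0.56 for *Gins3* and 0.41 for *Gins4*, and the difference between subunits was not tested. *Orc1* signals were 27.1 to 129 at DN1 and 124 to 167 at DN2 (2.64-fold), and *Orc6* signals were 221 to 557 and 510.5 to 593 (log2 change 0.86). The helicase activators *Mcm10* and *Cdc45* rose by 1.34 and 1.03 on the log2 scale.

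The 6 helicase genes *Mcm2* to *Mcm7* rose by similar amounts, between 0.91 and 1.28 on the log2 scale (median 1.01). The *Mcm7* signal of the control pools was 2133, 2814, 4088 and 2016 in DN1, 4946, 5275, 5329 and 5409 in DN2 and 4405, 4944, 4616 and 5436 in DN3. For *Mcm7*, the TLX1 pools had 2585, 4197, 2150.1 and 2409, 4744, 5128, 4456 and 5399 and 4058, 4370.3, 3628 and 5303. All 8 pools rose to DN2 without overlap with DN1 (log2 change 0.91 ± 0.13 (SE), adjusted p = 3.25e-05), and 7 of 8 were lower again at DN3. The *Mcm4* signal of the control pools was 1235, 1419.9, 3107 and 1048 in DN1, 3011, 3132, 3759 and 2708 in DN2 and 2584, 2793, 3206 and 2352 in DN3. For *Mcm4*, the TLX1 pools had 1840.2, 2207, 1159 and 1284, 2977, 2839.7, 2719 and 3405 and 2375, 2227, 2459 and 2120.2. Every pool was highest at DN2, but the DN1 signal of control pool 3 lay within the DN2 range. *Mcm2*, *Mcm3*, *Mcm5* and *Mcm6* had 8-pool medians of 717, 902, 1778 and 1612 at DN1 and 1612, 2639.9, 3563 and 4225 at DN2, so each of these medians was higher at DN2.

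All 7 polymerase and primase genes rose, by 1.00 to 1.31 on the log2 scale. *Pold1*, the catalytic subunit of the lagging strand polymerase, had the smallest p of the 38 genes. The *Pold1* signal of the control pools was 331, 517, 611 and 384 in DN1, 931, 1421, 849.9 and 1037 in DN2 and 760.0, 993, 829 and 835 in DN3. For *Pold1*, the TLX1 pools had 368, 608, 373 and 373, 963, 948, 1003 and 1108 and 779.9, 714, 718 and 883. Its DN1 and DN2 ranges did not overlap, DN2 was highest in 8 of 8 pools, and the log2 change was 1.24 ± 0.13 (SE) (adjusted p = 1.17e-06). *Prim1* and *Prim2* encode the small and large primase subunits. The *Prim1* signal of the control pools was 694, 889, 1749.7 and 629 in DN1, 2016, 2118, 2252 and 1832 in DN2 and 1480.2, 1563, 2127 and 1284 in DN3. For *Prim1*, the TLX1 pools had 960.1, 1525, 664 and 673, 1973, 1838, 1857 and 2075 and 1501, 1546, 1417 and 1536. *Prim1* was highest at DN2 in every pool (log2 change 1.14 ± 0.15 (SE), adjusted p = 1.4e-05). The *Prim2* signal of the control pools was 214, 259, 1050.1 and 140.3 in DN1, 675, 659.6, 785 and 512 in DN2 and 705, 599, 1141 and 441 in DN3. For *Prim2*, the TLX1 pools had 286, 978, 227 and 172, 726, 734, 676 and 554 and 674, 739, 599 and 445. Control pool 3 and TLX1 pool 2 were higher at DN1 than at DN2, against the other 6 pools, and the log2 change over all pools was 1.08 ± 0.25 (SE) (adjusted p = 0.00198). The polymerase alpha genes *Pola1* and *Pola2* and the polymerase epsilon genes *Pole* and *Pole2* had 8-pool medians of 308, 236, 225 and 278 at DN1 and 861, 562, 602 and 564 at DN2.

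The clamp gene *Pcna* had a smaller estimate than the 5 genes of its loader. The *Pcna* signal of the control pools was 4798, 7008, 6311 and 4610.1 in DN1, 7141, 7222, 7606 and 7039 in DN2 and 6196, 6934, 6607 and 6581 in DN3. For *Pcna*, the TLX1 pools had 4743, 6377, 4976 and 4735, 6387, 7223, 6506 and 7361 and 5674, 5863, 4913 and 6621. DN2 was highest in 8 of 8 pools, the stages overlapped, and the log2 change was 0.39 ± 0.082 (SE) (adjusted p = 0.000828). *Rfc1* to *Rfc5* rose by 0.97 to 1.14, and their difference from *Pcna* was not tested. The *Rfc2* signal of the control pools was 438, 548, 449.7 and 391 in DN1, 1042, 1110.0, 523 and 983 in DN2 and 704, 754, 573 and 681 in DN3. For *Rfc2*, the TLX1 pools had 426, 676, 580.1 and 498, 1082, 1196, 1072 and 1030.0 and 852, 849, 781 and 789. Control pool 3 stayed low at DN2 while the other 7 pools lay between 983 and 1196 there (log2 change 0.99 ± 0.11 (SE), adjusted p = 2.68e-06). The *Rfc5* signal of the control pools was 412, 474, 890.4 and 328 in DN1, 963, 933, 932 and 911 in DN2 and 703, 680.2, 864 and 606 in DN3. For *Rfc5*, the TLX1 pools had 542, 779.7, 451 and 385, 1029.6, 1075, 989 and 1076 and 743, 751, 638 and 729. Every pool had its highest *Rfc5* signal at DN2, above all DN1 signals. *Rfc1*, *Rfc3* and *Rfc4* had 8-pool medians of 348, 188 and 335 at DN1 and 794, 474 and 800.0 at DN2.

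All 3 subunits of replication protein A rose, with unlike estimates. *Rpa2* rose by 1.20 ± 0.15 (SE) on the log2 scale, with signals of 307 to 934 at DN1 and 1067 to 1368 at DN2 that did not overlap. *Rpa1* and *Rpa3* rose by 0.19 ± 0.068 (SE) and 0.32 ± 0.12 (SE), the smallest changes of the 38 genes (adjusted p = 0.0291 and 0.0333). The *Rpa1* signal of the control pools was 2328, 3012, 3417 and 2782 in DN1, 3226, 3526, 3055 and 2970.5 in DN2 and 2345, 2577, 2864 and 2579 in DN3. For *Rpa1*, the TLX1 pools had 2706, 3164, 2561 and 2730.0, 3102, 3369, 2916 and 3549.6 and 2426, 2532, 2306 and 2684. The DN1 and DN2 ranges overlapped widely, control pool 3 was lower at DN2 than at DN1, and all 8 pools were lower at DN3 than at DN2. The *Rpa1* rise did not pass in 12 of 21 alternatives, among them quantile normalization (adjusted p = 0.163) and leaving out any 1 of TLX1 pools 1, 3 and 4 and control pools 1, 2 and 4 (adjusted p = 0.0521 to 0.125, limma). *Rpa1* was also the only member whose mean log2 signal at DN3 lay outside the interval between its DN1 and DN2 means, below both.

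**Figure D3:**
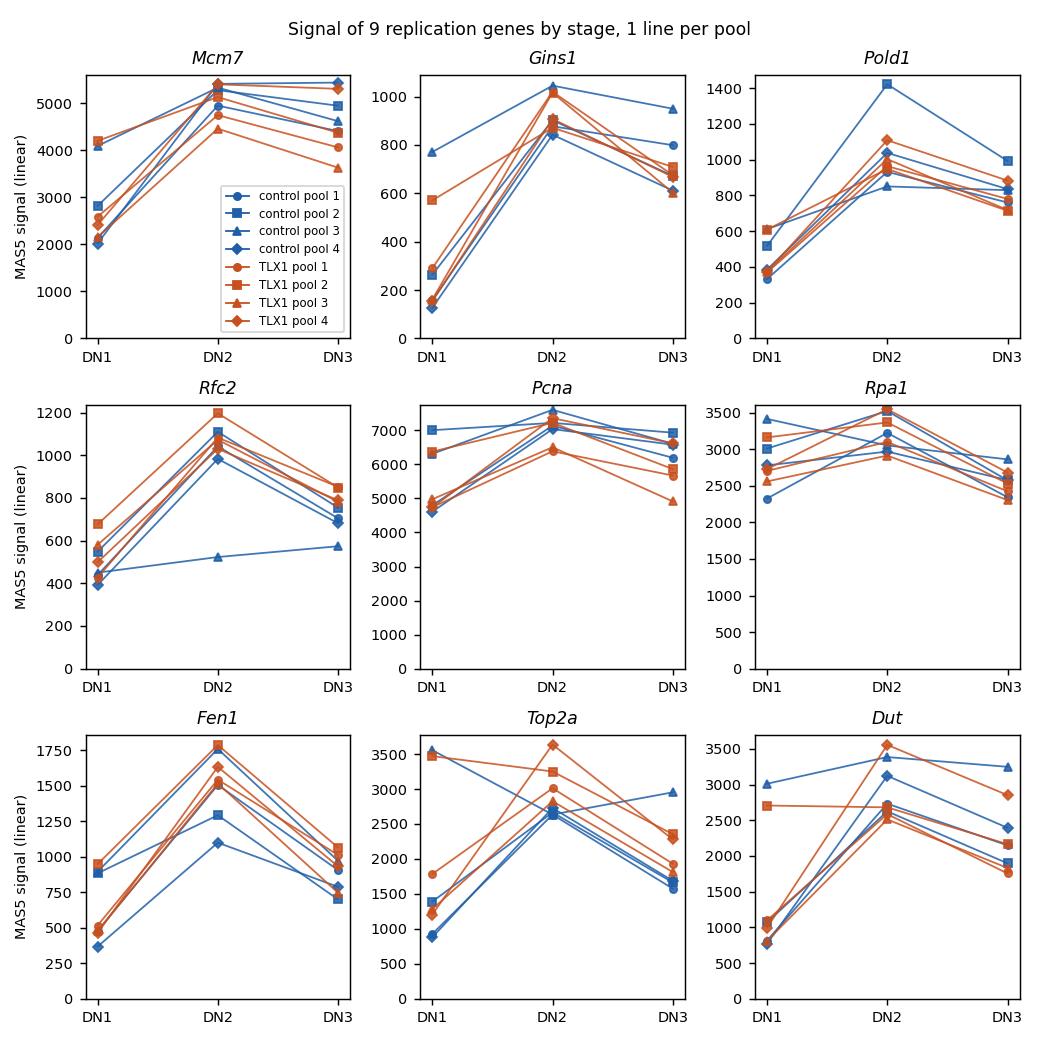
Linear MAS5 signal of 9 replication genes at DN1, DN2 and DN3, with 1 line per pool, blue for control pools and orange for TLX1 pools; every axis starts at 0. Gins1, Pold1, Pcna and Fen1 peaked at DN2 in 8 of 8 pools, and the lines of control pool 3 (blue triangles) and TLX1 pool 2 (orange squares) already had DN2-like signals at DN1 in Top2a and Dut.

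The lagging strand genes *Fen1* and *Lig1* and the topoisomerase gene *Top2a* all rose. The *Fen1* signal of the control pools was 478, 883, 895 and 367 in DN1, 1506, 1293, 1759.6 and 1099.7 in DN2 and 906, 699, 971 and 788 in DN3. For *Fen1*, the TLX1 pools had 516, 948, 475 and 463, 1543, 1787, 1516 and 1633 and 1012, 1065, 746 and 932. *Fen1* peaked at DN2 in every pool, with a log2 change of 1.34 ± 0.15 (SE) from DN1 (adjusted p = 2.41e-06). The *Lig1* signal of the control pools was 329, 584, 1426 and 305 in DN1, 1341, 1562, 950.4 and 1222 in DN2 and 693, 1129.8, 1112 and 769.5 in DN3. For *Lig1*, the TLX1 pools had 569, 1161, 412 and 407, 1600.5, 1676, 1445 and 1474 and 1020.0, 1114, 888 and 1015. *Lig1* was higher at DN2 than at DN1 in 7 of 8 pools, the exception being control pool 3, and its log2 change was 1.32 ± 0.24 (SE) (adjusted p = 0.000254). The *Top2a* signal of the control pools was 926, 1389.5, 3556 and 878 in DN1, 2634, 2665, 2635 and 2728 in DN2 and 1575, 1663, 2953 and 1687 in DN3. For *Top2a*, the TLX1 pools had 1784, 3471, 1281 and 1205, 3011, 3251, 2825 and 3636 and 1932, 2354, 1812 and 2279. Control pool 3 and TLX1 pool 2 were higher at DN1 than at DN2, against the other 6 pools (log2 change 0.88 ± 0.21 (SE), adjusted p = 0.00201).

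All 5 nucleotide supply genes rose, by 0.46 to 1.37 on the log2 scale. The *Dut* signal of the control pools was 813, 1069.6, 3011 and 769 in DN1, 2732, 2624, 3385 and 3121 in DN2 and 2147, 1897, 3248 and 2394 in DN3. For *Dut*, the TLX1 pools had 1097, 2706, 810.5 and 994, 2586, 2680.4, 2511 and 3555 and 1754, 2164, 1831 and 2851. At DN1 the signals of control pool 3 and TLX1 pool 2 were already in the DN2 range, and the other 6 pools lay between 769 and 1097 (log2 change 1.24 ± 0.22 (SE), adjusted p = 0.000179). The ribonucleotide reductase subunits had log2 changes of 1.17 ± 0.20 (SE) for *Rrm1* and 0.46 ± 0.17 (SE) for *Rrm2*, which was higher at DN2 in 6 of 8 pools. *Tk1* signals were 165 to 607 at DN1 and 737 to 1008 at DN2, with no overlap. *Tyms* was measured by a dim probe set (14.4 to 50.3 at DN1 and 42.3 to 95.4 at DN2), because a brighter probe set also matches *Tyms-ps* and was not assigned to either gene. That shared probe set had 8-pool medians of 395 at DN1, 1272 at DN2 and 820 at DN3.

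From DN2 to DN3, as thymocytes lost CD44, all 38 estimates were negative, with a median log2 change of -0.39 against 0.075 over all probe sets. *Fen1*, *Rfc2*, *Rfc5* and *Rpa1* fell at an adjusted p under 0.05, and no gene rose (6.93% of all probe sets did). Of all probe sets 4.07% fell. At an unadjusted p under 0.05, 24 of the 38 genes were lower, beside 10.1% of all probe sets. Both stage comparisons use the same DN2 arrays. Markers of other cells moved over the same step. Among markers above the signal filter, 6 of 8 myeloid and 2 of 2 mast cell and basophil markers fell. So did 2 of 5 natural killer and innate lymphoid and 2 of 5 dendritic markers. Summed over all measured genes of the list, myeloid signals were 1301 to 1518 at DN2 and 686 to 1079 at DN3. Mast cell and basophil sums were 1223 to 2211 and 288 to 591, and neither list overlapped between the stages. The part of these markers in the change of the replication genes was not tested. *Fen1*, the flap endonuclease, had the largest fall, with signals of 1099.7 to 1787 at DN2 and 699 to 1065 at DN3 that did not overlap (log2 change -0.77 ± 0.15 (SE), adjusted p = 0.00539). *Rpa1* signals were 2916 to 3549.6 at DN2 and 2306 to 2864 at DN3, also without overlap (log2 change -0.34 ± 0.068 (SE), adjusted p = 0.00695). The clamp loader genes *Rfc2* and *Rfc5* fell by 0.40 and 0.47 on the log2 scale (SE 0.11 and 0.14, adjusted p = 0.0327 and 0.0402), *Rfc5* in 8 of 8 pools and *Rfc2* in 7 of 8, with control pool 3 the exception. At the other end, *Prim2* had a change of -0.042 ± 0.25 (SE) (adjusted p = 0.93) and was lower at DN3 in 5 of 8 pools.

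The direction was shared widely over genes and pools even where single genes did not pass. The DN3 signal was below the DN2 signal of the same pool in 8 of 8 pools for 22 genes (6.75% of all probe sets) and in at least 7 of 8 for 36 (14.9%). Per pool, the median log2 change of the 38 genes was -0.45, -0.44, -0.084 and -0.47 in control pools 1 to 4 and -0.40, -0.33, -0.44 and -0.44 in TLX1 pools 1 to 4, so control pool 3 was close to 0 and the other 7 pools were alike. DN2 was the highest of the 3 stages in 8 of 8 pools for 18 genes, against 3.11% of all probe sets. By role, the median log2 change was lowest in the 3 lagging strand and topology genes (-0.55) and was -0.32 in the helicase, -0.34 in the clamp and its loader, -0.34 in the single-strand binding complex, -0.37 in polymerases and primase, -0.42 in nucleotide supply and -0.43 in origin recognition and helicase activation. *Rfc2* and *Rfc5* were the 2 genes called in the clamp group, *Rpa1* and *Fen1* the ones called in theirs, and 0 genes were called in the other 4 roles.

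Of the pools left out singly, control pool 3 changed the number of genes called between DN2 and DN3 the most. The DN2 array of that pool also had the highest 3′/5′ index of all 8 at this stage, 0.990 against at most 0.441 on the other 7, while the same pool read 0.038 at DN1. The part of RNA quality in the count was not tested for this pool alone, and with the index as a covariate over all pools 13 genes fell (6.11% of all probe sets). Without that pool 19 of 38 genes fell (7.12% of all probe sets), without it and TLX1 pool 2 together 27 fell (7.30%), with arrays weighted by quality 32 fell (12.5%), and without any other single pool 2 fell, *Fen1* and *Rpa1*. Within the 4 TLX1 pools only *Rpa1* fell (1.18% of all probe sets), and within the 4 control pools no gene did (0.788%), where 3 genes were lower at an unadjusted p under 0.05 (5.28% of all probe sets).

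Between DN1 and DN3, the ends of the series, 30 of 38 genes were higher at DN3 and 0 were lower, with a median log2 change of 0.75 (1.68-fold). Of all probe sets, 30.1% were higher and 25.0% lower at DN3. In the 8 genes that did not pass, the log2 change was 0.51 for *Cdc45*, 0.33 for *Top2a*, 0.25 for *Gins3*, 0.20 for *Gins4*, 0.19 for *Pcna*, 0.15 for *Rpa3*, 0.037 for *Rrm2* and -0.15 for *Rpa1*. *Gins1* again had the largest change, 1.48 ± 0.26 (SE) (adjusted p = 0.000189, limma), while *Gins3* and *Gins4* were among the 8 genes that did not pass. The DN3 signal exceeded the DN1 signal in 8 of 8 pools for 15 genes (20.2% of all probe sets). In control pool 3 and TLX1 pool 2 the median log2 change was 0.038 and 0.027, and in the other 6 pools it was 0.65 to 1.15. For 37 of 38 genes the mean log2 signal at DN3 lay between those at DN1 and DN2.

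Other genes of DNA replication and nucleotide supply followed in part. Of 42 listed, 40 were measured, and from DN1 to DN2 29 rose and 6 fell, beside 28.5% and 31.2% of all probe sets. *Dctd* (dCMP deaminase) and *Dtymk* (thymidylate kinase), which act in thymidine nucleotide synthesis, rose by 1.34 ± 0.085 (SE) and 1.39 ± 0.12 (SE) on the log2 scale (adjusted p = 1.29e-08 and 2.44e-07). *Dctd* signals were 58.3 to 101 at DN1 and 158 to 209 at DN2. *Samhd1*, which degrades deoxynucleotides and is known to be high in myeloid cells, fell, with signals of 497 to 1855 at DN1 and 19.3 to 45.1 at DN2 (log2 change -5.36 ± 0.38 (SE), adjusted p = 3.39e-08). *Rrm2b*, the ribonucleotide reductase subunit that is used outside S phase, fell, with signals of 244 to 391 and 126 to 171 (log2 change -1.15 ± 0.098 (SE), adjusted p = 2.08e-07). The other 4 that fell were *Tk2*, the mitochondrial thymidine kinase, *Pole4*, *Pold4* and *Orc5*. The summed myeloid markers fell over the same step (7277 to 20124 at DN1 and 1301 to 1518 at DN2), and their part in the fall of *Samhd1* was not tested.

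From DN2 to DN3, 6 of these 40 genes fell and 1, *Tk2*, rose, beside 4.07% and 6.93% of all probe sets. *Dctd* fell by 0.52 on the log2 scale (SE 0.085, adjusted p = 0.00212) and *Rnaseh2c*, a subunit of the enzyme that removes RNA from DNA, by 0.42 (SE 0.078, adjusted p = 0.0045). *Pold3*, an accessory subunit of polymerase delta, and *Cdt1*, which loads the helicase, had changes of -0.38 ± 0.084 (SE) and -0.37 ± 0.094 (SE) (adjusted p = 0.0114 and 0.0225). From DN1 to DN3, 23 of the 40 were higher and 7 lower, beside 30.1% and 25.0% of all probe sets. Between TLX1 and control pools, 0 of the 40 were called at any stage, beside at most 0.0185% of all probe sets. An unadjusted p under 0.05 (limma) was found for 1 of them, at DN3, beside 6.02% of all probe sets there.

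A comparison of TLX1 with control pools at each stage asked whether the transgene went with a change in replication genes before disease. No replication gene differed at an adjusted p under 0.05 at DN1, DN2 or DN3 (limma, 4 pools against 4). At an unadjusted p under 0.05 the count was 0 of 38 in every stage, beside 1.72%, 3.53% and 6.02% of all probe sets at DN1, DN2 and DN3. Among all probe sets 0.00370% were called at DN1, 0.00370% at DN2 and 0.0185% at DN3, so almost no gene of any kind passed. The median log2 difference, TLX1 minus control, over the 38 genes came to 0.057 in DN1, 0.061 in DN2 and -0.026 in DN3. The precision differed between stages, with 95% intervals for single genes from -1.53 to 1.81 at DN1, from -0.75 to 0.87 at DN2 and from -0.85 to 0.64 at DN3. At DN2 and DN3 the interval of every one of the 38 genes therefore lay within 1 log2 unit of 0, and 28 and 21 of them within 0.5, while at DN1 19 lay within 1.

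**Figure D4:**
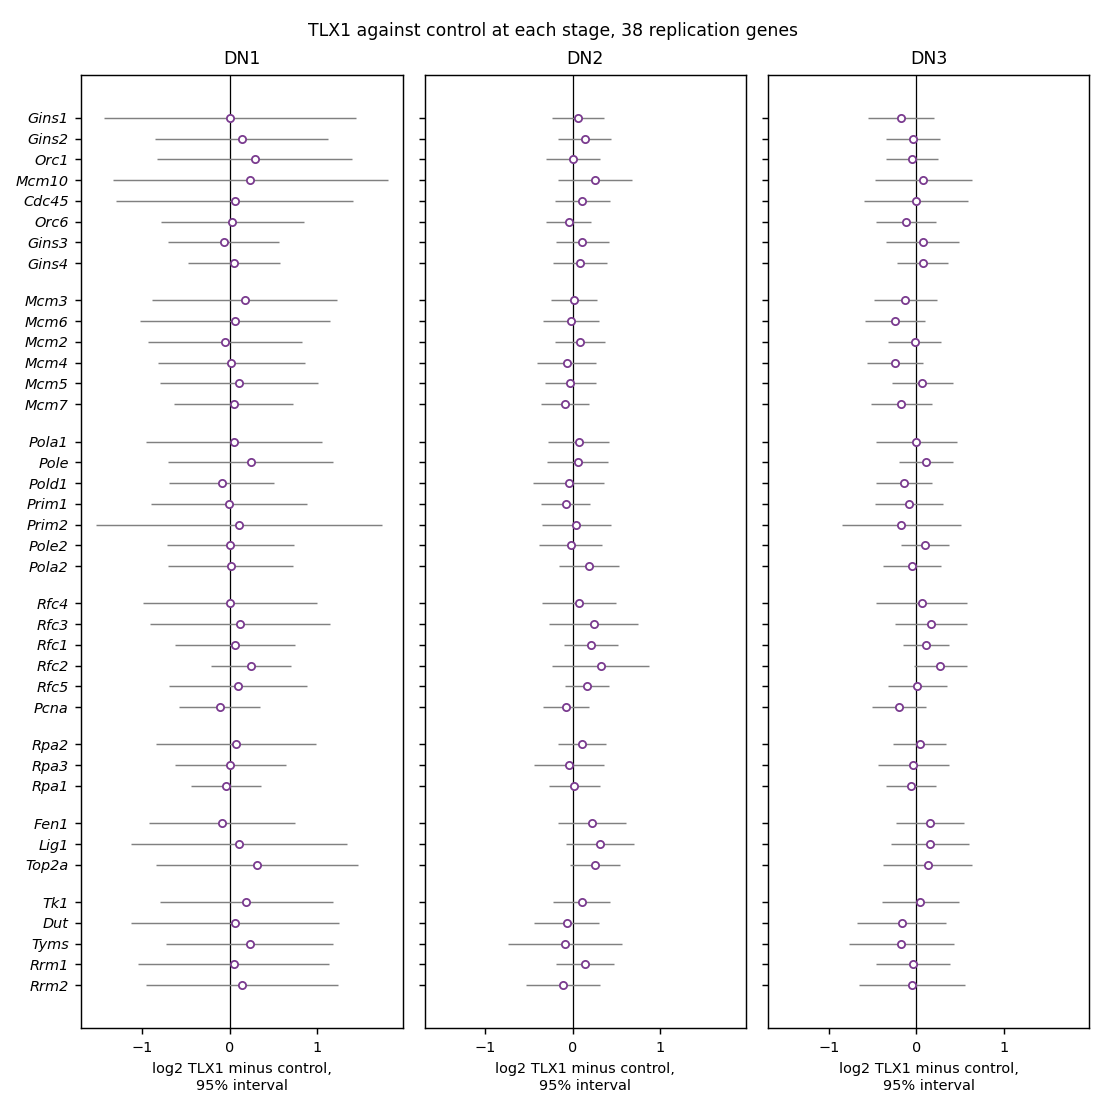
Log2 difference, TLX1 minus control, of the 38 replication genes at DN1, DN2 and DN3, with 4 pools in each group; points are estimates and bars are 95% intervals of the fit. Every interval includes 0, and the bars at DN1 reach from -1.53 to 1.81 against -0.75 to 0.87 at DN2.

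The smallest p-values at DN1 belonged to *Rfc2* and *Top2a*, with differences of 0.24 (95% interval -0.21 to 0.70) and 0.31 (95% interval -0.85 to 1.47). No gene was free of overlap between genotypes at DN1, beside 1.25% of all probe sets, and *Top2a* was spread by control pool 3 and TLX1 pool 2. At DN2 they belonged to *Top2a* and *Lig1*, with differences of 0.25 (95% interval -0.038 to 0.54) and 0.31 (95% interval -0.085 to 0.70). All 4 TLX1 pools were above all 4 control pools at DN2 for *Top2a* (2825 as the lowest TLX1 signal against 2728 as the highest control signal) and for *Rfc5* (989 against 963), 2 of 38 genes beside 2.75% of all probe sets without overlap. At DN3 they belonged to *Rfc2* and *Mcm4*, with differences of 0.28 (95% interval -0.024 to 0.58) and -0.25 (95% interval -0.56 to 0.073) (adjusted p = 0.86 and 0.91). *Rfc2* was the 1 gene of 38 without overlap there, with TLX1 higher, beside 3.89% of all probe sets. This holds for its brightest probe set, and with the median of its probe sets the difference was -0.14. For *Mcm4*, the estimate was lower in TLX1 and the pools overlapped.

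The stage changes themselves were also set against each other between genotypes. The difference of the TLX1 effect between DN1 and DN2, between DN2 and DN3 and between DN1 and DN3 was called for 0 of the 38 genes in each test of the interaction, with 0 genes at an unadjusted p under 0.05, beside 3.60%, 2.89% and 3.23% of all probe sets at that unadjusted threshold and 0 of 27022 after adjustment. The median DN1 to DN2 change was 1.08 in control and 1.11 in TLX1 pools, and the median DN2 to DN3 change was -0.37 and -0.40. RNA quality moved with genotype, since the 3′/5′ index was -0.025 to 0.153 in TLX1 and 0.038 to 0.412 in control pools at DN1, 0.125 to 0.371 and 0.236 to 0.990 at DN2, and 0.101 to 0.339 and 0.501 to 0.572 at DN3. With the index as a covariate 0 genes were called at any stage, and the median difference at DN1 became -0.59. At DN3 the index ranges of the genotypes did not overlap, so that fit separates index and genotype poorly there.

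Several probe sets of a gene mostly moved alike. The 38 genes have 85 probe sets, of which 77 passed the signal filter. From DN1 to DN2, 70 of the 77 rose and 0 fell, beside 28.5% and 31.2% of all probe sets. The 2 with negative estimates were dim second probe sets of *Mcm3* and *Pola2*. From DN2 to DN3, 7 of the 77 fell and 0 rose, beside 4.07% and 6.93% of all probe sets. Between genotypes 0 were called at any stage, beside at most 0.0185% of all probe sets.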

How the data were processed

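The intensity values are MAS5 signals on a linear scale deposited by the authors, whose processing notes name the Affymetrix Expression Console. The 2% trimmed mean of each array is 150. Detection flags are not analysed here. Of 45037 probe sets that are not array controls, 34945 match 1 gene, 932 several and 9160 none in GEO's platform annotation.

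Signals were floored at 1 and log2 transformed. The 27022 probe sets with the highest mean (60%) were tested with limma 3.58.1 (R 4.3.3), with Benjamini-Hochberg adjustment over all of them and calls at an adjusted p under 0.05. Stage contrasts came from 1 fit of the 24 arrays that held each pool as a block, because each pool gave all 3 stages (correlation of deviations between stages of a pool 0.18 to 0.63). For genotype, the 8 arrays of a stage were fitted alone, 4 against 4, without covariates. The stage fit (DN2 against DN1) and the genotype fit (DN3) were tested on simulated data. The number of pools limits precision, and the arrays give no counts.

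The 38 genes, the other replication genes and the marker lists were chosen with earlier results of these data known. Pool values were given for the gene with the highest mean signal in each role, those with the smallest p-values (4 per stage step, 2 per genotype comparison) and the extremes from DN2 to DN3. Marker lists covered sorting, early T, B lineage, myeloid, dendritic, natural killer and innate lymphoid, mast cell and basophil, erythroid and stromal genes. Promoter windows are from RefSeq. Alternatives were other scalings, filters, offsets, probe set summaries, blocks, covariates, array weights, the methods' t-test and leaving out pools.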

Additional observations from a re-analysis of the deposited data

Results flagged for a closer look

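In 7 of 100 groups of 4 pools tested, the values of the genes given by pool, of the 38-gene mean and of the 38-gene median change, 1 pool lay far from the other 3, where chance gives about 1 group in 20. Of these, 3 were TLX1 pool 2 at DN1, with signals of 608 for *Pold1*, 6377 for *Pcna* and 948 for *Fen1*, each the highest of its group. Control pool 3 stood apart in another 3. Its *Rfc2* signal at DN2 was 523, the lowest of its group, its *Top2a* signal at DN3 was 2953, the highest, and its median log2 change of the 38 genes from DN2 to DN3 was -0.084, the closest to 0. Control pool 4 had the lowest *Gins2* signal at DN3, 284. No gene showed a difference of the TLX1 effect between stages by the test of the interaction.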

How the results depend on the processing

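From DN1 to DN2, 34 to 38 genes rose and 0 fell over the settings tried, with a median log2 change of 0.98 to 1.45. Of all probe sets, 16.2% (no filter) to 47.1% (median centring) rose in these settings. The *Rpa1* call was lost in 12 of 21. From DN1 to DN3, 21 to 36 genes were higher, beside 17.3% (no filter) to 42.0% (median centring) of all probe sets. *Rpa1* was lower (1 gene) with an offset of 32, with the 40% filter and without control pool 1 (0 to 1 over the pools left out). In these 3 settings 26.0%, 27.1% and 22.8% of all probe sets were lower. TLX1 and control differed for 0 genes at every stage in each setting. These included the methods' t-test, after adjustment and at their thresholds of unadjusted p and fold change, and the replicate block between genotypes. The labels do not say that replicate numbers pair pools. Correlations of same-number pools ran from -0.34 to 0.48 over 12 pairs, with 6 over 0.1. Number 4 had 0.48, 0.40 and 0.37 at DN1, DN2 and DN3. The interaction was called for 0 genes.

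From DN2 to DN3 the count depended on the processing. It was 4 genes as reported (4.07% of all probe sets), 13 when the 3′/5′ index was a covariate (6.11%), 32 with array weights (12.5%), 11 with median centring (10.1%), 8 with an offset of 32 (5.01%), 7 with the 40% filter (6.73%), 2 with no filter (1.32%) and 2 with no replicate block (1.54%), 27 without both pools with many cells outside the gates, 1 within TLX1 pools, 0 within control pools, and 2 to 19 with 1 pool left out. With 1 genotype or fewer pools the samples are fewer. The cause of the moves in the count was not tested in any of these settings. *Fen1* and *Rpa1* kept their call in all settings that used both genotypes.

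Median centring moved the median of all probe sets to 0.287 from DN1 to DN2 (74.0% of calls higher, against 47.7% as reported and 58.7% with quantile normalization), -0.077 from DN2 to DN3 (18.8%, against 63.0% and 45.7%) and 0.230 from DN1 to DN3 (70.2%, against 54.6% and 59.6%). Relative to that median the 38-gene median change was 1.14, -0.46 and 0.71 as reported and with median centring, and 1.01, -0.37 and 0.63 with quantile normalization. Single genes that changed sign passed in no such setting: *Prim2* from DN2 to DN3 (0.027 with the median of its probe sets, 0.063 within control pools, -0.12 to 0.0039 with 1 pool left out), *Rfc2* between genotypes (-0.00042 at DN1 with array weights, -0.14 at DN3 with the median of its probe sets) and *Top2a* at DN1 (-0.60 with the 3′/5′ index, -0.014 to 0.76 with 1 pool left out, the lowest without TLX1 pool 2). The median TLX1 difference also changed sign, from -0.59 to 0.39 at DN1 and from -0.064 to 0.085 at DN3 over the settings (0.019 at DN3 with quantile normalization). Dim probe sets such as that of *Tyms* limit what can be read of single genes.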
